A study of Solanum lycopersicum with 6 samples.

Results

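Pti4-type ethylene response factors (ERFs) and C-repeat binding factors (CBFs) were followed through 6 libraries from tomato (Solanum lycopersicum) leaves. The 9 gene models were chosen by identifier out of 35768 in the count table, under a rule that uses no measured value. The models were chosen with earlier results of these data known. They are 3 CBF models, listed as CBF1 (Solyc03g026280), CBF2 (Solyc03g124110) and CBF3 (Solyc03g026270), and 6 ERF models, of which Solyc05g052050 is listed as Pti4. The other ERF models, Solyc05g052040, Solyc05g052030, Solyc05g051200, Solyc03g093610 and Solyc08g078180, are given by identifier. RefSeq's tomato gene table (assembly SLM_r2.1) holds PTI4 on chromosome 5 and CBF1 on chromosome 3, the chromosomes that their identifiers carry, but it pairs 0 entries with identifiers of this kind and has no entry under the symbol CBF2 or CBF3. Tomato CBF1, CBF2 and CBF3 are described as a tandem cluster, whereas Solyc03g124110 is far in number from the other CBF models, so its name is used here as listed and is uncertain.

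The LTM group (n = 2) holds ribosome footprints, the mRNA pieces that a ribosome shields from RNase, from leaves treated with LTM, an agent the labels do not spell out, with puromycin added to the extract. The labels give these as initiating ribosomes. The CHX group (n = 2) holds footprints of elongating ribosomes from extracts with 100 µg/ml cycloheximide, which arrests ribosomes on the mRNA, and the mRNA group (n = 2) holds total RNA depleted of rRNA from aliquots of the CHX extract. All plants were grown at 28 °C with 12 h of light per day, and the labels give their age as 3 weeks in one field and 2 weeks in another. The labels name no cultivar, mutation or further treatment. Nor do they tell whether the libraries of a group came from separate plants, so a p-value here reflects library-to-library spread that may be technical.

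ERFs and CBFs belong to the AP2/ERF family of plant transcription factors, which bind DNA through a shared AP2 domain. ERFs of the Pti4 type bind the GCC box found in promoters of many defence genes, and Pti4 was identified as a protein that binds the tomato resistance kinase Pto, which recognises strains of Pseudomonas syringae. CBFs bind the C-repeat or dehydration-responsive element and are best known from Arabidopsis, where cold induces their mRNAs quickly and the CBF proteins then switch on genes for freezing tolerance.

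The shallowest library, LTM replicate 1, held 18240140 counts and the deepest, CHX replicate 1, 48704200. Levels are given as CPM, a count scaled by its library total, where 1 count is worth 0.0205 CPM in the deepest and 0.0548 CPM in the shallowest library. Ratios between groups come from edgeR's quasi-likelihood test on all 20806 models with enough counts, with TMM scaling and Benjamini-Hochberg adjustment over those models, and a model was called at an adjusted p under 0.05. Reads of LTM and CHX were counted in coding regions and those of mRNA in whole transcripts, so a footprint to mRNA ratio also depends on untranslated length. Among the members, 4, the CBFs and Solyc08g078180, had enough counts to be tested only through the LTM libraries and so had to differ there, while the other 5 also passed without them.

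The CBF models were close to undetected in CHX footprints and mRNA and abundant in LTM footprints. CBF1 had 6945 and 11851 counts in the LTM replicates, 10 and 8 in CHX and 3 and 5 in mRNA. In CPM these are 381 and 304 in LTM, 0.205 and 0.167 in CHX and 0.121 and 0.165 in mRNA. CBF2 had 6916 and 14083 counts in LTM, 3 and 7 in CHX and 5 and 3 in mRNA, or 379 and 361 CPM, 0.0616 and 0.146 CPM, and 0.202 and 0.0988 CPM. Both LTM libraries stood far above every CHX and mRNA library for these CBFs, while CHX and mRNA lay at a few counts each and overlapped for CBF2. CBF3 had 1334 and 2412 counts in LTM, 1 and 4 in CHX and 1 in each mRNA replicate. Its LTM levels of 73.1 and 61.9 CPM compare with 0.0205 and 0.0836 CPM in CHX and 0.0403 and 0.0329 CPM in mRNA. Summed over the CBF models, LTM held 833 and 727 CPM, CHX 0.287 and 0.397 CPM and mRNA 0.363 and 0.296 CPM. Such a sum would cover reads split among these models, but not reads dropped for matching several.

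**Figure D1:**
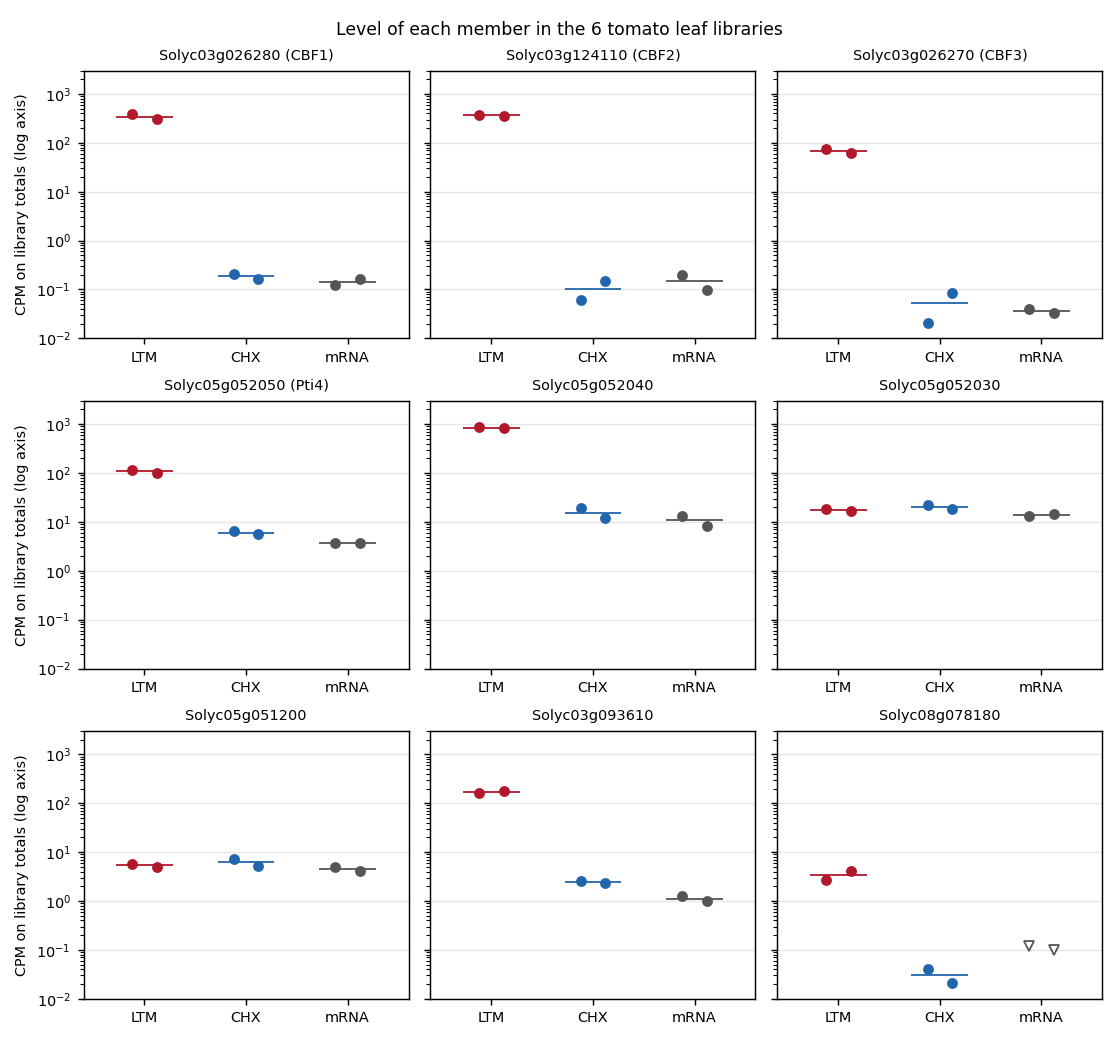
Level of each member in CPM on library totals (log axis) in the LTM, CHX and mRNA libraries; points are libraries, bars the mean of 2, and open triangles mark libraries with 0 counts at the limit that 3 counts set. In 7 members the LTM points lie above all others, with CBF1 at 381 and 304 CPM against 0.205 and 0.167 CPM in CHX. For 4 of the 7, the CBFs and Solyc08g078180, the filter had already fixed that direction. Over all 20806 tested models, both LTM libraries lay above both CHX libraries in 46.8% and above both mRNA libraries in 48.2%. Solyc05g052030 stays between 13.4 and 22.4 CPM and Solyc05g051200 between 4.12 and 7.19 CPM in all 6 libraries.

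In the comparison of LTM with CHX, which sets initiating against elongating footprints, CBF2 averaged 370 ± 12.7 CPM in LTM and 0.104 ± 0.0599 CPM in CHX (SD, n = 2 each). Its fitted log2 ratio was 11.47 (SE 0.35). CBF1 averaged 342 ± 54.3 CPM in LTM and 0.186 ± 0.0270 CPM in CHX, a log2 ratio of 10.52 (SE 0.25). CBF3 averaged 67.5 ± 7.96 CPM in LTM and 0.0521 ± 0.0446 CPM in CHX, a log2 ratio of 9.97 (SE 0.31). The CBFs entered the test only through their LTM counts, so these ratios are given as a description and their p-values are left out. The denominators are 5 to 18 summed counts, so the size is loosely set: the counting interval (95%, exact binomial, library totals) ran from 1115-fold to 2974-fold for CBF1, from 1926-fold to 7390-fold for CBF2 and from 541-fold to 3896-fold for CBF3. Without CHX replicate 2 the log2 ratio of CBF2 was 12.13 and that of CBF3 was 11.11. Without CHX replicate 1 that of CBF2 was 11.02 and that of CBF3 was 9.35. With no mRNA library from LTM-treated leaves at hand, more initiating ribosomes per mRNA and more mRNA in those leaves cannot be told apart, here or for any member below.

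Pti4, the Pto-binding ERF, had 118 and 102 CPM in LTM, 6.45 and 5.64 CPM in CHX and 3.79 and 3.65 CPM in mRNA. The replicates of each group lay close together and the groups did not overlap, which was common. Over all tested models, both LTM libraries lay above both CHX libraries in 46.8%, and both CHX above both mRNA libraries in 34.7%. Pti4 averaged 110 ± 11.2 CPM in LTM and 6.04 ± 0.569 CPM in CHX (SD, n = 2 each). The fitted difference of Pti4 was 14.8-fold, a log2 ratio of 3.88 (SE 0.18, edgeR adjusted p = 3.60e-06). Solyc05g052040, the identifier directly before it in number, had 880 and 821 CPM in LTM, 18.8 and 11.9 CPM in CHX and 13.2 and 8.33 CPM in mRNA. Replicate 1 was the higher one in CHX and mRNA alike, by 1.58-fold and 1.59-fold, and both lay far below either LTM library. The fitted LTM over CHX difference of this ERF was 44.9-fold, a log2 ratio of 5.49 (SE 0.39, edgeR adjusted p = 3.02e-05).

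Solyc03g093610, another ERF, had 162 and 175 CPM in LTM, 2.59 and 2.38 CPM in CHX and 1.25 and 0.988 CPM in mRNA. It was 55.4-fold higher in LTM than in CHX, a log2 ratio of 5.79 (SE 0.22, edgeR adjusted p = 1.58e-06). Solyc08g078180, also an ERF, had 49 and 158 counts in LTM, 2 and 1 in CHX and 0 in both mRNA libraries. Its LTM levels were 2.69 and 4.05 CPM, and no LTM library overlapped with a CHX library. With 3 CHX counts in all, LTM was 116-fold above CHX on library totals, with exact binomial bounds (95%) of 39.3-fold and 569-fold. These limits cover counting error only.

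The remaining ERF models had no excess in LTM. Solyc05g052030, numbered directly before Solyc05g052040, had 18.1 and 17.1 CPM in LTM, 22.4 and 18.2 CPM in CHX and 13.4 and 14.6 CPM in mRNA. Its LTM level lay just under the CHX level, with a log2 ratio of -0.50 (SE 0.17, edgeR adjusted p = 0.0432). That call depended on the processing: the adjusted p was 0.452 with total-count scaling (log2 ratio -0.20) and 0.0604 with DESeq2, and it missed the threshold when any library but CHX replicate 2 was left out (0.0662 without mRNA replicate 1 to 0.234 without CHX replicate 1). Solyc05g051200 had 5.76 and 4.95 CPM in LTM, 7.19 and 5.18 CPM in CHX and 5.04 and 4.12 CPM in mRNA, so LTM and CHX overlapped. Its log2 ratio was -0.51 (SE 0.25) and was not called (edgeR adjusted p = 0.134), but with the replicate number as a block, on which the labels are silent for LTM, it was called lower (log2 ratio -0.47, edgeR adjusted p = 0.0361).

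Counts of members set against each other within a library need no scaling between libraries. The identifiers Solyc05g052030, Solyc05g052040 and Solyc05g052050 follow each other in number. For each count of Solyc05g052030, Solyc05g052040 had 48.5 and 48.1 counts in the LTM replicates, 0.843 and 0.656 in CHX and 0.985 and 0.572 in mRNA. Pti4 had 6.48 and 5.96 counts per count of Solyc05g052030 in LTM, 0.288 and 0.311 in CHX and 0.282 and 0.251 in mRNA. The balance within this run of identifiers thus differed between LTM and CHX by 6.02 and 4.38 on the log2 scale, with no overlap of replicates. Solyc03g093610 likewise had 28.2 and 35.4 counts per count of Solyc05g051200 in LTM and 0.360 and 0.460 in CHX, a difference of 6.28. Solyc05g052030 and Solyc05g051200 are the members without an excess in LTM. The differences over them therefore restate the fitted ratios from the same counts and are no separate evidence. For Solyc05g052040 over Pti4 the difference was 1.65, from 7.49 and 8.07 in LTM and 2.92 and 2.11 in CHX. CBF1 over CBF2 was 1.00 and 0.842 in LTM and 3.33 and 1.14 in CHX, a difference of -1.09 that rests on at most 10 counts per CHX library. Over these 5 pairs the exact two-sided permutation p was 0.333 each, raw and adjusted, the smallest that 2 libraries against 2 allow.

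In all, 7 of the 9 members were called higher in LTM than in CHX, where 22.4% of all tested models were, and 1 was called lower, where 19.6% were. For 4 of the 7, the CBFs and Solyc08g078180, the filter had already fixed the direction, so nothing is read from that count. Of the 5 members that passed without the LTM libraries, Pti4, Solyc05g052040 and Solyc03g093610 were higher, Solyc05g052030 was lower and Solyc05g051200 was not called, and among the 19859 tested models that passed in the same way 20.1% were higher and 20.5% lower. The median log2 ratio was 3.88 over these 5 members and -0.06 over those models, whose 95th percentile was 2.76. The members were chosen with earlier results of these data known, so these values are a description and no test of the group. With total counts in place of TMM, the ratios of all models moved up by a median of 0.29 and 82.6% of calls over all models were upward, against 53.3% with TMM. Of the 5 members that passed without the LTM libraries, Pti4, Solyc05g052040 and Solyc03g093610 were at 3.88, 5.49 and 5.79 with TMM. With total counts they were at 4.18, 5.79 and 6.08. Solyc05g052030 and Solyc05g051200 were at -0.50 and -0.51 with TMM and at -0.20 and -0.22 with total counts.

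The comparison of LTM with mRNA, which sets initiating ribosomes against transcript level in differently treated leaves, gave the same 7 members higher (25.5% of all tested models) and 0 lower (27.4%). Of the 5 members that passed the filter without LTM, 3 were higher and 0 lower, beside 23.4% and 28.7% of the models that passed in that way. At an unadjusted edgeR p under 0.05 the number lower was also 0, and DESeq2 gave 0 as well. This comparison shares its LTM libraries with the one above and is no separate evidence. CBF1 stood at a log2 ratio of 10.91 (SE 0.27), and CBF2 at 11.01 (SE 0.35). The CBF2 value was 11.66 without mRNA replicate 1 and 10.48 without mRNA replicate 2. CBF3, with 2 mRNA counts in all, stood 1806-fold higher on library totals, with exact binomial bounds (95%) of 499.7-fold and 14920-fold. Solyc08g078180 had no mRNA count in either replicate and was at least 66.5-fold higher in LTM, taking 3 counts over both mRNA libraries as the limit. Pti4 was 24.3-fold higher in LTM than in mRNA, Solyc05g052040 64.0-fold and Solyc03g093610 125-fold, with edgeR adjusted p-values of 1.76e-06, 1.55e-05 and 1.03e-06. Solyc05g052030 (log2 ratio 0.06, SE 0.17) and Solyc05g051200 (-0.06, SE 0.26) were not called. The signs of these last values turned under other settings, to 0.22 for Solyc05g051200 with total counts and to -0.020 for Solyc05g052030 with upper-quartile factors. Total counts moved all models by a median of 0.27 in this comparison, with 62.2% of calls upward against 48.2% with TMM.

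CHX set against mRNA gives the load of elongating ribosomes for a given amount of transcript, often called translational efficiency. Of the 9 members, 3 were called higher in CHX, beside 22.5% of all tested models, and 0 were called lower, beside 27.4%. At an unadjusted edgeR p under 0.05 the number lower was 0, and with DESeq2 it was also 0. The median log2 ratio of the members was 0.51, or 0.50 with Solyc08g078180 placed at its limit, and that of all models was -0.02, with an interquartile range from -0.81 to 0.56. Of the 5 members that passed the filter without LTM, 3 were higher and 0 lower, with a median log2 ratio of 0.55. Among the models that passed in that way, 23.3% were higher and 28.4% lower, with a median of -0.02. Solyc03g093610 had the clearest excess, at 2.48 ± 0.145 CPM in CHX and 1.12 ± 0.185 CPM in mRNA (SD, n = 2 each), a log2 ratio of 1.17 (SE 0.23, edgeR adjusted p = 0.00411) that was called in every setting tried.

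Pti4 followed, with 6.04 ± 0.569 CPM in CHX and 3.72 ± 0.0948 CPM in mRNA, a log2 ratio of 0.72 (SE 0.18, edgeR adjusted p = 0.0121). Leaving out CHX replicate 1 moved its adjusted p to 0.0731, leaving out mRNA replicate 2 moved it to 0.0960, and among models of at least 10 CPM it was 0.0630. Solyc05g052030 averaged 20.3 ± 2.97 CPM in CHX and 14.0 ± 0.800 CPM in mRNA, a log2 ratio of 0.55 (SE 0.17, edgeR adjusted p = 0.0256), and its adjusted p missed the threshold when CHX replicate 1 (0.150) or either mRNA replicate (0.0771 and 0.132) was left out, and among models of at least 10 CPM (0.152). Solyc05g052040 was not called (log2 ratio 0.51, SE 0.33, edgeR adjusted p = 0.235), although its ratio of CHX to mRNA was 1.43 within each replicate number. Solyc05g051200 had a log2 ratio of 0.45 (SE 0.25, edgeR adjusted p = 0.171) and was not called either. With the replicate number as a block it was called higher (log2 ratio 0.44, edgeR adjusted p = 0.0442). mRNA was taken from aliquots of the CHX extract, but the labels do not say that equal numbers share an extract.

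For the CBFs and Solyc08g078180 the depth could not show a difference between CHX and mRNA. CBF1 had 18 CHX counts against 8 in mRNA, a 1.29-fold difference on library totals with exact binomial bounds (95%) of 0.532 and 3.42. The interval of CBF2 ran from 0.254 to 2.08 and that of CBF3 from 0.234 to 15.0. The signs of the fitted log2 ratios of CBF3 (0.50) and CBF2 (-0.46) turned without 1 library, to -0.65 without CHX replicate 2 and to 0.20 without mRNA replicate 1. Solyc08g078180 had 3 counts in CHX and 0 in mRNA, both at or under the 3 counts that a count of 0 allows, so no fold is given.

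**Figure D2:**
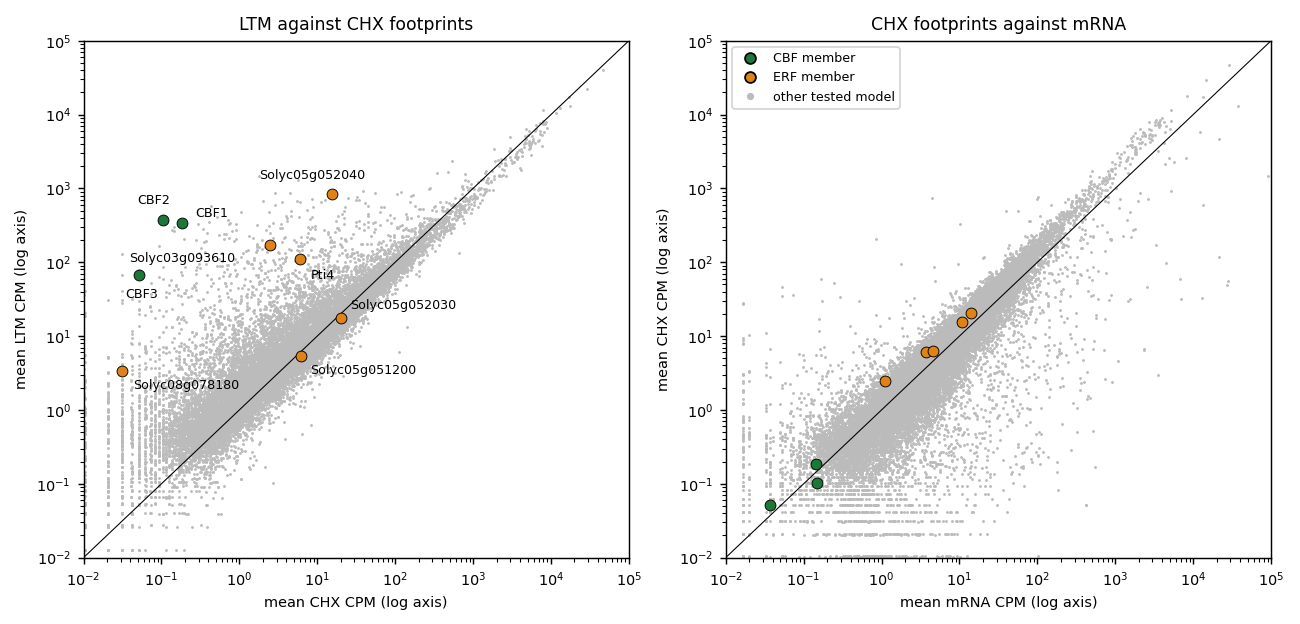
Mean CPM of every tested model (log axes; models at 0 in either group are not drawn, which leaves Solyc08g078180 out of the right panel), with LTM against CHX footprints on the left and CHX footprints against mRNA on the right; the line marks equal CPM. On the left CBF1, CBF2 and CBF3 lie far above the line at 342, 370 and 67.5 CPM in LTM against 0.186, 0.104 and 0.0521 CPM in CHX, and on the right the members lie among the other models.

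Together the 9 models took 2020 and 1851 CPM of the LTM libraries, 57.8 and 43.7 CPM of the CHX libraries and 37.1 and 31.9 CPM of the mRNA libraries. The CBFs made up 41.2% and 39.3% of the members' counts in LTM, 0.498% and 0.909% in CHX and 0.978% and 0.928% in mRNA. The LTM libraries differed in depth by more than the other pairs, with 18240140 and 38983295 counts, yet the levels of the members agreed between them to within 1.51-fold, the widest gap being that of Solyc08g078180.

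The identifiers number models along a chromosome, so models with nearby numbers served as a local comparison. Within 100 in number of a member there were 115 other models, of which 68 were tested. Of these, 17 (25.0%) were called higher in LTM than in CHX and 11 (16.2%) lower, close to the shares over all tested models, and their median log2 ratio was -0.12. The 19 tested neighbours of CBF1 had a median of -0.52 and a maximum of 4.45, below CBF1 at 10.52 and CBF3 at 9.97. CBF2 had 4 tested neighbours, between -0.57 and 0.13. The CBFs and Solyc08g078180 were tested only through their LTM counts, so the filter had already fixed that they were higher in LTM. Nothing is read from their place among neighbours. Around Solyc03g093610 the picture was different: 4 of its 11 tested neighbours, numbered 50 to 75 below it, had log2 ratios of 6.46 to 6.84, above its own 5.79. The models numbered 10 below and 10 above Solyc08g078180 had log2 ratios of 5.38 and 6.55 around its own 6.35. The table does not name these neighbours, and whether they are ERFs was not analysed here. Some near Solyc03g093610 are on a list of other ERF identifiers that was set aside, so the neighbours may include relatives of the members. Near Pti4 the highest of 10 tested neighbours was at 4.19, above Pti4 itself at 3.88. The 8 around Solyc05g051200 had a median of 0.70 and a maximum of 2.79.

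**Figure D3:**
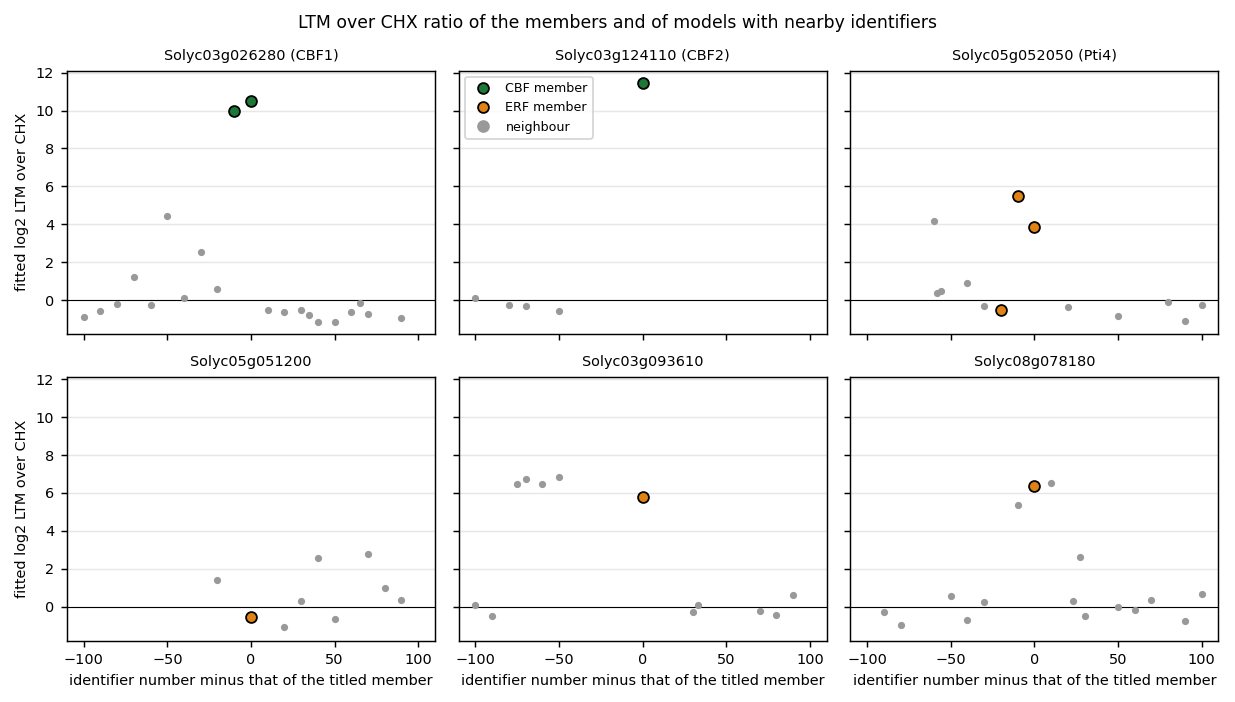
Fitted log2 ratio of LTM over CHX for members and for tested models within 100 in identifier number, drawn by the difference in number from the titled member. CBF1 and CBF3 lie above their tested neighbours at 10.52 and 9.97, whereas Solyc03g093610 lies near 4 neighbours at 6.46 to 6.84 and Solyc08g078180 between neighbours at 5.38 and 6.55. For the CBFs and Solyc08g078180 the filter had already fixed that they were higher in LTM, so nothing is read from their place.

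Among models outside the list, those nearest to Pti4 in log2 CPM over the 6 libraries (Euclidean distance, prior count 2) were Solyc04g074950.3.1 at a distance of 0.70 and Solyc07g062490.1.1 at 0.87. The first had 177 and 107 CPM in LTM, 5.95 and 5.83 CPM in CHX and 2.98 and 3.69 CPM in mRNA, and the second 75.5 and 79.4 CPM, 4.91 and 5.45 CPM, and 3.14 and 3.56 CPM. Within the list each nearest model was sought among far fewer models, so these distances are not set against those above. CBF1 and CBF2 were nearest to each other at 1.39, Pti4 and Solyc03g093610 at 3.13, and Solyc05g052030 and Solyc05g051200 at 4.12. This distance uses level as well as pattern, and CPM is not divided by length.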

How the data were processed

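The deposited table holds raw counts of reads per gene model for 6 libraries; per the file headers, the authors counted footprints in coding regions and mRNA in transcript regions. No source used here gives the aligner, the counter, the genome build or the annotation release, or says how multiply matching reads were handled, so reads of similar family members may be split or dropped. Groups and replicate numbers come from the titles. The members and lists were chosen with earlier results of these data known, and the named models follow a fixed rule: all 9 members and the 2 models most like Pti4. Lists of other ERF, ethylene-signalling and leaf marker identifiers were not used as comparison sets, because no table at hand names them, so the labelled tissue was not checked.

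Analysis used R 4.3.3 with edgeR 4.0.16 and DESeq2 1.42.0. One edgeR quasi-likelihood model (filterByExpr, TMM, glmQLFit, glmQLFTest) with the kind of library as factor was fitted to all 6 libraries and all 20806 models kept, with 3 residual degrees of freedom. Tests were two-sided at an adjusted p of 0.05 over all models. The SE is the size of the log2 ratio divided by the square root of F. Libraries of 1 kind differed by more than sampling noise (chi-square per degree of freedom 50.5 to 57.2) and were kept as separate replicates. Alternatives were other scaling factors, DESeq2, other filters, fits to the kinds compared alone, a replicate block and leaving out each library. Intervals and the limit of 3 counts cover counting error only, since no molecular identifiers are stated.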

Additional observations from a re-analysis of the deposited data

How the results depend on the processing

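Pti4, Solyc05g052040 and Solyc03g093610 stayed higher in LTM than in CHX or mRNA under each setting. The CBFs and Solyc08g078180 did so too where tested, but the filter had fixed their direction, so nothing is read from that. The 10 CPM filter left out Solyc08g078180, which gave 6 members higher in place of 7. Members called higher in CHX than in mRNA numbered 1 with the 10 CPM filter and 1 to 3 with 1 library left out, against 3 in the fit reported. Members called lower in LTM than in CHX numbered 0 with total counts, the DESeq2 test, the 10 CPM filter or only the kinds compared, 0 to 1 with 1 library left out, and 2 with the replicate block. Uncalled log2 ratios changed sign in 7 cases: CHX over mRNA ran from -0.65 to 1.11 for CBF3 and from -1.12 to 0.20 for CBF2 with 1 library left out; LTM over mRNA of Solyc05g051200 ran from -0.26 to 0.21 in that way (0.022 without LTM replicate 2) and was 0.22 with total counts, and that of Solyc05g052030 was -0.020 with upper-quartile factors and -0.013 with the 10 CPM filter. Total counts and upper-quartile factors kept the same libraries and models. They moved the LTM over mRNA ratios of all models by medians of 0.27 and -0.075. The other cases had fewer libraries or models, and the cause was not tested.

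Over all models, the 10 CPM filter (8292 tested) called 1700 models higher and 2334 lower in CHX over mRNA, 2222 higher and 1717 lower in LTM over CHX, and 2454 higher and 2292 lower in LTM over mRNA. Total counts gave 1228 lower in LTM than in CHX. Leaving out 1 library gave 2676 to 4920 higher in CHX than in mRNA and 2482 to 3520 lower in LTM than in CHX, against 4680 and 4074. The replicate numbers were not taken as pairs: the labels do not tie them to an extract, and deviations from group means correlated at 0.433 (CHX and mRNA), 0.424 (LTM and CHX) and 0.217 (LTM and mRNA). A replicate block called 5623 models higher and 6326 lower in CHX over mRNA, and 5330 higher and 5297 lower in LTM over CHX. With it the LTM vs CHX ratio of Solyc05g051200 was -0.47 (edgeR adjusted p = 0.0361) and its CHX vs mRNA ratio 0.44 (edgeR adjusted p = 0.0442). Depth limits the CBFs and Solyc08g078180 in CHX and mRNA to a few counts.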
